A study of Mus musculus with 4 samples.

Results

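ATP-binding cassette (ABC) transporter genes were described in OP9, a stromal line from mouse bone marrow, with and without a Wnt3A transgene. Members were the probes, chosen by name from the annotation and not on any measured value, of a 1-colour Agilent mouse array whose gene symbol is Abc, a subfamily letter from a to g, a number and at most 1 more letter. The names gave 97 probes of 50 genes, among 41174 probes of 27597 named genes. The 2 Control samples carried the retroviral vector LZRS-IRES-GFP alone, and the 2 Wnt3A samples carried that vector with the Wnt3A gene. The promoter that drives the insert is not given in the sources used here, and the vector of both groups also encodes GFP. All 4 samples were OP9 cells grown in the same medium with fetal calf serum, and a global PCR protocol amplified their cDNA ahead of labelling. The labels call the replicates separate but name no cultures, and the p-values therefore cover only the variation among these samples, which may be technical.

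ABC proteins use ATP to move lipids, peptides, metals, drugs and drug conjugates across membranes. Each transporter joins membrane-spanning domains to nucleotide-binding domains, either in 1 chain or as a dimer of half-transporters. Subfamily A is known for lipid export, B for drug efflux, bile transport and mitochondrial or lysosomal transport, C for export of conjugates and for regulators of ion channels, D for entry of fatty acids into peroxisomes, and G for sterol and drug export. Proteins of subfamilies E and F lack membrane domains and act on ribosomes. Wnt3A is a secreted ligand that stabilises beta-catenin, which acts on genes together with TCF/LEF factors.

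The values are the intensities of the table that was deposited for all samples, in which the median of each array is 1. Array by array they lay above an estimated detection floor (Control floors of 0.0702 and 0.0631, Wnt3A floors of 0.0533 and 0.0729) at 80.7% to 83.7% of spots. Changes are differences of log2 intensity, Wnt3A minus Control, after subtraction of the 75th percentile of each array. A change was called at an adjusted p under 0.05 in limma over all 33709 tested probes. Over these probes the Control arrays correlated at r = 0.930 (Pearson) and the Wnt3A arrays at 0.935, and arrays of different groups at 0.876 to 0.885. Of 11 stromal markers, 10 were kept, and their summed intensity was 470 and 736 for Control and 1353 and 1499 for Wnt3A, with Lepr not kept. The collagens Col1a1, Col1a2 and Col3a1 were higher and carried the sum, while the other 7 were lower, 4 of them without overlap (Pdgfra, Vcam1, Cxcl12 and Ly6a), and the median change over the 10 was -0.19. No marker of any list passed the threshold. The scanner files deposited beside the table rank the probes differently, and many members differ in direction between the 2 sources. The values given are those of the table unless the scanner files are named. The single Wnt3a probe was above the floor on 1 array, Wnt3A replicate 2 (0.123). It starts at base 2599 of its transcript and may lie outside the insert, so it does not check the labels.

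Promoter sequences are shown for the 2 members that fell, Abca1 and Abcb1a, and for Abcb1b, the close paralogue of Abcb1a, which did not pass the threshold. They run from 250 bases before to 50 bases after the start in RefSeq's annotation of build GRCm38.p6, in the direction of the gene. Capitals mark the motifs searched on both strands: CTTTGA, the core that TCF/LEF factors recognise, the TATA box written as TATAAA, the GC box written as GGGCGG, and the box named CCAAT. The Abca1 sequence is chr4:53159846-53160145 on the minus strand, that of Abcb1a is chr5:8566841-8567140 on the plus strand and that of Abcb1b is chr5:8797897-8798196 on the plus strand.
Abca1: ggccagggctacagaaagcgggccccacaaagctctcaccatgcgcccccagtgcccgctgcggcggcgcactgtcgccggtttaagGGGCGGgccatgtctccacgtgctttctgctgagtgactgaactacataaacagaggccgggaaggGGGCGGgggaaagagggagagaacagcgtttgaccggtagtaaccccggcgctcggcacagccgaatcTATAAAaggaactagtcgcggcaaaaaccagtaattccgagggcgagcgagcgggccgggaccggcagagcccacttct
Abcb1a: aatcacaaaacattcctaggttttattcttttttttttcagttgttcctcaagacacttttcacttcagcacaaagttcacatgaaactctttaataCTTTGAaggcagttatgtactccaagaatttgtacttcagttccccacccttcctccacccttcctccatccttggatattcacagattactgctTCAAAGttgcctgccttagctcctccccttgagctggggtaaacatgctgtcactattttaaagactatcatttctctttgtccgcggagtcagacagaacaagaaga
Abcb1b: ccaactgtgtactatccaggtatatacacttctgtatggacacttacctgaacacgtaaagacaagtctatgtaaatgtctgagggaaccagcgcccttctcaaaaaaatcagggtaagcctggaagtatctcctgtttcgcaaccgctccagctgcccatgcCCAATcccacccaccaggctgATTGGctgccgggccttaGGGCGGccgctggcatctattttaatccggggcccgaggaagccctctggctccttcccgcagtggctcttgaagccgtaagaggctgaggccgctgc

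The 3 sequences differ in composition. GC content was 62.7% in the Abca1 window, 40.3% in that of Abcb1a and 55.0% in that of Abcb1b, beside a median of 52.7% over all promoters. The Abca1 window holds 2 GC boxes and 1 TATAAA, the Abcb1a window holds 2 matches to CTTTGA, and the Abcb1b window holds 1 GC box and 2 CCAAT matches. CTTTGA occurs in 16.0% of 32851 promoters of the same length, TATAAA in 13.6%, GGGCGG in 35.7% and CCAAT in 37.4%. RefSeq promoters were matched for 38 of the 50 genes, 45 promoters in all. CTTTGA was in 8 of these promoters, and the longer form CTTTGAT, which contains it, was in 0 of them and in 3.73% of all promoters. TATAAA was in 7 of the members' promoters, GGGCGG in 21 and CCAAT in 16. These matches describe letters in a window and not binding.

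Of the 50 genes, 46 had a probe that exceeded the floor throughout Control, throughout Wnt3A or in both, and were tested. Of these, 42 were above the floor on all 4 arrays by their brightest probe, Abcc10 on 3, and Abca1, Abcb1a and Abcg1 on the Control arrays only. No tested member was measured on the Wnt3A arrays only. Of 46 members, 0 rose and 2 fell in limma, where 0.402% of 22859 genes tested rose and 0.241% fell. At an unadjusted p under 0.05, 2 members were higher and 5 lower, and 12.7% of all genes tested met that level in either direction. Both members that fell entered the test through their Control values alone and so had to differ, and the family was singled out with results of this comparison known, so the count supports nothing about the family. Without the probes that were not above the floor on all 4 arrays, 0 of 42 members rose or fell in limma. At an unadjusted p under 0.05 in that fit, 2 were higher and 2 lower. Of 21190 genes tested in that setting, 21 rose and 13 fell, and 1249 were higher and 1300 lower at the unadjusted level.

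Members lay on both sides. Among tested members 24 were higher and 22 lower, with a median change of 0.03 (log2) beside -0.01 over all genes tested. That balance depended on single arrays: 29 were higher and 17 lower without Control replicate 1 (median 0.18), and 17 higher and 29 lower without Control replicate 2 (median -0.22). All genes tested shifted the same way, with 11941 higher and 10918 lower without Control replicate 1 (median 0.03). Without Control replicate 2 they were 10404 and 12455 (median -0.07). In the scanner files 27 were higher and 15 lower after normexp (median 0.20), and 21 higher and 21 lower from processed signals (median 0.0003). Over all genes tested there the medians were 0.02 after normexp and -0.12 from processed signals. The groups did not overlap in 22 members, 11 higher and 11 lower, which is 47.8% of members, and in 45.2% of all genes tested. The 11 lower include Abca1, Abcb1a and Abcg1, which entered the test through Control alone. Among genes above the floor on all 4 arrays, 19 of 42 members did not overlap, 11 higher and 8 lower. That is 45.2% of these members, beside 43.9% of all such genes. A change of 1 or more was seen in 3 members upward (6.52%) and 6 downward (13.0%), beside 10.2% and 9.83% of all genes. The 6 include Abca1, Abcb1a and Abcg1, kept for their Control values only. Counting only genes whose brightest probe exceeded the floor on every array, 2 of 42 members went up this far (4.76%) and 3 down (7.14%). Of all genes counted that way, 8.17% went up and 8.17% down. The median change was -0.04 in subfamily A (14 tested genes), 0.15 in B (9 genes), -0.38 in C (10 genes), -0.24 in D (4 genes), 0.35 in E (1 gene), 0.22 in F (3 genes) and 0.05 in G (5 genes).

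Among the cholesterol exporters, Abca1 fell. Abca1 loads cholesterol and phospholipid onto apolipoprotein A-I, the first step in the formation of high-density lipoprotein. Its single probe (chr4:53052172-53052231, mm8) read 1.04 and 1.05 in Control and 0.0120 and 0.0176 in Wnt3A. Both Control values were far above the floor and both Wnt3A values below it, with no overlap. The fitted change was -6.15 ± 0.35 (SE, log2; limma adjusted p = 0.0279, 2 arrays per group), and against the floor Abca1 was at least 16.6-fold lower, or at least 8.31-fold with a floor 2 times as high. Omitting any single array ended the call, with changes of -5.89 to -6.42 and limma adjusted p of 0.145 to 0.191. In the scanner files the probe was well above background on 1 array, Wnt3A replicate 1, a sample in which the table has it below the floor, and it was not tested there.

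Abcg1, which passes cellular sterol to mature lipoprotein particles and is induced by the same liver X receptors as Abca1, read 0.731 and 0.140 in Control and 0.0107 and 0.0155 in Wnt3A (chr17:30842647-30842706, mm8). Both Wnt3A values lay below the floor, so Abcg1 entered the test through Control alone and had to differ. The Control values had an SD of 1.76 (log2) and both lay above the Wnt3A values. The change of -4.63 ± 0.91 did not pass the threshold (limma adjusted p = 0.159). Against the floor the level was at least 5.10-fold lower, or at least 2.55-fold with a floor 2 times as high. Without Control replicate 1 the bound was 2.15-fold and the change -3.38, and without Control replicate 2 they were 12.1-fold and -5.87. In the scanner files the probe was well above background on 3 arrays, Wnt3A replicate 1 among them, and the change there was -2.13 from processed signals and -0.54 after normexp and quantile normalization.

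The genes around these exporters did not pass the threshold. In the list of sterol efflux and its regulation, 14 of 15 genes were tested, 0 rose and 0 fell, 7 were higher and 7 lower, and the median change was -0.04. Lcat, which esterifies cholesterol on lipoproteins, had the lowest change (-1.53, adjusted p 0.694 in limma) and Pltp, a phospholipid transfer protein, the highest (0.48, 0.664). Nr1h3, the liver X receptor alpha and named here after its value was seen, read 9.34 and 11.8 in Control and 4.37 and 4.30 in Wnt3A, a change of -1.26 that did not pass (0.217). Macrophages are rich in both exporters. Of 11 macrophage and myeloid markers 10 were kept, and their summed intensity was 16.9 and 13.1 in Control and 14.8 and 11.6 in Wnt3A. Lyz2, Csf1r and Adgre1 were higher and Cd68 and Aif1 lower without overlap, and the other 5 overlapped. Mrc1 was not kept, and the part of these cells in the result was not tested. In bulk RNA, fewer cells of a type and less RNA per cell cannot be told apart.

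The other A members include a cluster on chromosome 11 of genes whose substrates are poorly known. Abca8a (chr11:109841724-109841773, mm8) read 3.13 and 3.35 in Control and 0.853 and 0.822 in Wnt3A. The groups did not overlap and each was tight. The change was -1.94 ± 0.30 (limma adjusted p = 0.108) and stayed between -1.90 and -1.99 in all table alternatives, without passing in any. None of its neighbours passed the threshold, with Abca8b at 0.68, Abca9 at -0.54 and Abca6 at -0.37. Abca5, the fifth gene of the cluster, read 0.144 and 0.175 against 0.282 and 0.460, a change of 1.20 ± 0.38 (0.312), while its other kept probes gave 0.56 and -1.64. Abca8a and Abca8b are similar in sequence, and how far their probes separate them was not tested.

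Abca15, which lies beside Abca14 and Abca16 on chromosome 7, read 0.955 and 0.238 in Control and 0.242 and 0.218 in Wnt3A. Only Control replicate 1 stood high, and the change of -1.04 ± 0.78 (limma adjusted p = 0.653) became 0.015 without that array. Among the rest of subfamily A changes ran from -0.54 to 0.73 over 10 genes with adjusted p of 0.570 or more in limma. These were Abca2, a lysosomal lipid transporter (0.22), Abca3, which fills lamellar bodies with surfactant lipid (0.26), Abca7, a lipid exporter related to Abca1 (0.08), Abca12, a lipid transporter of the skin barrier (-0.37), Abca13 (0.73), Abca14 (0.00) and Abca17 (-0.07), with Abca6, Abca8b and Abca9 above. Abca4, the retinal transporter of photoreceptors, was above the floor on 2 arrays, 1 in each group, and Abca16 on 0 arrays, so neither was tested.

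Among drug exporters of subfamily B, Abcb1a fell. Abcb1a and Abcb1b encode the mouse P-glycoproteins, which pump many hydrophobic drugs out of cells. Abcb1a (chr5:8753985-8754044, mm8) read 0.266 and 0.343 in Control and 0.0155 and 0.0153 in Wnt3A. The Control values were above the floor, the Wnt3A values below it. The change was -4.28 ± 0.31 (limma adjusted p = 0.0328), and the level was at least 4.81-fold lower against the floor, or at least 2.41-fold with a floor 2 times as high. The call was lost without any 1 of the 4 arrays (changes of -4.15 to -4.41, limma adjusted p of 0.155 to 0.196) and with no filter on dim probes (0.0530). In the scanner files the probe was well above background on 0 arrays.

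Abcb1b, the neighbour of Abcb1a in the same gene cluster, was higher in Wnt3A and did not pass the threshold. Its brightest probe (chr5:8867447-8867506, mm8) read 6.95 and 4.21 in Control and 8.60 and 8.86 in Wnt3A. Both Wnt3A values lay above both Control values, but the change of 0.70 ± 0.41 did not pass (limma adjusted p = 0.559). The other probes gave 0.71 and -0.23, and in the scanner files the brightest probe was at -0.11 and -0.20, the opposite direction. Abcb4, the phosphatidylcholine floppase of bile and the last gene of the cluster, was at 0.15 (adjusted p 0.894 in limma) with overlapping groups. Abcb1a and Abcb1b are close paralogues, and binding of either transcript to the other's probes was not tested.

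Other B members serve organelles or the liver. Abcb6, a half-transporter linked to porphyrins, was at 0.70 with a wide Control spread (14.8 and 3.66). The mitochondrial half-transporters Abcb8 and Abcb10 were at 0.23 and -0.33, the lysosomal peptide transporter Abcb9 at -0.72 and the bile salt export pump Abcb11 at 0.07. None passed the threshold (limma adjusted p of 0.559 or more over the 8 B genes other than Abcb1a). Abcb5 was above the floor on 0 arrays. Of 14 genes of mitochondrial iron-sulfur and heme synthesis all 14 were tested, 0 rose and 0 fell, 8 were higher and 6 lower, with a median of 0.04. Alas1, the first enzyme of heme synthesis, was lowest at -1.21 (0.242) and the scaffold Iscu highest at 0.55 (0.612).

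In subfamily C, the multidrug resistance proteins and channel regulators, 0 of 10 genes passed in either direction and 7 were lower. Abcc10, a broad-range drug exporter, had the largest size of change, 1.36 ± 1.30 (limma adjusted p = 0.730), from 0.0616 and 0.370 in Control and 0.983 and 0.150 in Wnt3A. Those groups overlapped, Control replicate 1 was below the floor, and the change was -0.016 without Wnt3A replicate 1. It was -3.96 and -1.84 in the scanner files, in the opposite direction to the table. Changes of the other 9 genes ran from -0.77 to 0.64, with adjusted p of 0.465 or more.

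Abcc1, a widespread exporter of glutathione conjugates, and Abcc5, an exporter of cyclic nucleotides and other anions, lay on opposite sides in the table, each on 3 probes. Values of both genes on each array were added after they were seen. The brightest Abcc1 probe read 38.0 and 27.5 in Control and 19.4 and 18.4 in Wnt3A, and the 3 probes gave changes of -0.70 to -0.79. The brightest Abcc1 probe (chr16:14387042-14387101, mm8) overlaps another of them (chr16:14387083-14387142), so they are not 3 separate sites. The brightest Abcc5 probe read 25.1 and 22.9 against 41.4 and 33.2, and its 3 probes gave 0.63 to 1.09. The groups did not overlap on any of these 6 probes, and none passed the threshold in limma. In the scanner files the contrast was not seen, with Abcc1 at 0.07 and 0.05 and Abcc5 at -0.22 and 0.17. Abcc3, an organic anion exporter, was at -0.62, Abcc4, a nucleotide and prostaglandin exporter, at -0.40, Abcc2, the canalicular conjugate pump, at -0.24, Abcc6, linked to soft-tissue calcification, at 0.43 and Abcc12 at -0.37. The sulfonylurea receptors Abcc8 and Abcc9, subunits of ATP-sensitive potassium channels, were at -0.74 and -0.40. The second Abcc4 probe gave -1.79, with 8.48 and 9.52 in Control and 3.26 and 2.04 in Wnt3A (adjusted p 0.180 in limma).

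Glutathione is a substrate or partner of several C members. In the list of glutathione supply and xenobiotic receptors all 15 genes were tested, 0 rose and 0 fell at the threshold, 14 were lower and 1 higher, and the median change was -0.91, beside -0.01 over all genes. The groups did not overlap in 9 of these genes, all 9 lower, where 23.7% of all genes tested were lower without overlap. The list was chosen with earlier results of these data known, so this count supports nothing about the list. Nqo1, a quinone reductase, had the lowest change, from 61.4 and 43.4 in Control to 4.91 and 5.49 in Wnt3A (-3.30, limma adjusted p = 0.0632), and Nr1i2, the pregnane X receptor, the highest (0.02). In the list of channel pores and lipid trafficking partners, 12 of 13 genes were tested, 0 rose and 0 fell, 6 were higher and 6 lower. Sgms2, a sphingomyelin synthase, was lowest at -2.74 (0.0811) and Kcnj2, a potassium channel pore, highest. Both Control values of Kcnj2 lay below the floor (0.0148 and 0.0140, against 0.115 and 0.194 in Wnt3A). Kcnj2 therefore entered the test through Wnt3A alone, with a fitted adjusted p of 0.0684 in limma. Its level was at least 2.26-fold higher, and this bound ran from 1.76-fold to 2.90-fold when single arrays were left out.

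Subfamily D carries fatty acids and their CoA esters into peroxisomes, except Abcd4, which takes part in the release of vitamin B12 from lysosomes. Abcd4 (chr12:85492570-85492629, mm8) read 8.39 and 8.03 in Control and 3.06 and 2.82 in Wnt3A. The arrays of each group lay close together and the groups did not overlap. The change of -1.47 ± 0.30 did not pass (limma adjusted p = 0.172), and it was -0.98 and -0.78 in the scanner files. The groups overlapped in the processed signals of the scanner files. Abcd3, an abundant peroxisomal membrane protein, had changes of -0.71, -0.83 and -0.32 on 3 probes, and Abcd2, a transporter of very long-chain fatty acids, was at 0.54. Neither passed the threshold. In the list of peroxisome entry and beta-oxidation, 11 of 12 genes were tested, 0 rose and 0 fell, 3 were higher and 8 lower, and the median change was -0.28. The thiolase Acaa1a was highest at 0.18 (adjusted p 0.914 in limma).

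The ribosome-acting members had small changes. Abce1, which splits ribosomes after termination, was at 0.35 (limma adjusted p = 0.751), with Control values of 19.8 and 31.7 and Wnt3A values of 32.0 and 31.2. Abcf1, an initiation factor partner, was at 0.00 with 51.0 and 59.4 against 53.3 and 56.2. Abcf2 was at 0.64 with 20.2 and 18.4 against 27.3 and 32.6, and its second probe gave 1.03, without overlap on either probe. Abcf3 was at 0.22. None passed. All 13 genes of ribosome recycling and initiation were tested, 0 rose and 0 fell, 7 were higher and 6 lower, with a median of 0.06. The release factor genes marked both ends, Etf1 at -0.73 and Gspt1 at 0.41.

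In subfamily G, Abcg2 was on the opposite side from Abcg1. Abcg2, the breast cancer resistance protein that exports drugs and urate and marks side population cells, read 5.26 and 4.46 in Control and 9.26 and 23.2 in Wnt3A (chr6:58620163-58621845, mm8). Both Wnt3A values were higher than both Control values, and Wnt3A replicate 2 stood far above the rest. The change was 1.61 ± 0.54 and did not pass (limma adjusted p = 0.336), and it ran from 0.96 to 2.26 when single arrays were left out. A second probe read 3.25 and 2.05 against 4.97 and 8.64, a change of 1.35. In the scanner files the change was 2.33 and 1.78, also upward and not past the threshold. The sterol half-transporters Abcg5 and Abcg8, which work as a dimer, were at 0.05 and 0.24, and Abcg4, a sterol exporter of the nervous system, at -0.64. Abcg3, a rodent relative of Abcg2, was above the floor on 2 arrays and was not tested.

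The family has 3 more genes that fall outside the name rule. Cftr, the chloride channel of the C group, was at -0.46 by its brightest probe (limma adjusted p = 0.695). Its other probe was above the floor on 0 arrays. Tap1 and Tap2, the B-group peptide transporters of antigen presentation, were at -0.14 (0.956) and -0.56 (0.650). In the list of peptide loading with Tap, 11 of 12 genes were tested, 0 rose and 0 fell, 5 were higher and 6 lower, with a median of -0.01. Psmb8, an immunoproteasome subunit, was lowest, from 17.1 and 16.7 to 1.19 and 1.90 (-3.48, 0.0594), and Psmb9, another such subunit, highest at 0.60 (0.496).

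Probes of the same gene did not always give the same direction. Several probes were kept for 26 members, and these lay on 1 side of 0 in 18 members and on both sides in 8. The examples that follow were chosen after their values were seen. Abca3 gave 0.26, 1.80 and 3.04, the last from 0.0846 and 0.126 in Control to 1.24 and 0.580 in Wnt3A (limma adjusted p = 0.125). Abcb10 gave -0.33 and 1.29, and Abca8b 0.68 and -1.73, the latter with Wnt3A replicate 2 below the floor. Abcb8 gave 0.23, and its second probe was below the floor on both Control arrays. That probe was at least 1.94-fold higher in Wnt3A, or at least 1.25-fold with a floor 2 times as high. The probes of these examples lie at different places of their genes, and transcript forms were not resolved here.

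The scanner files gave no call among the members. There 42 members were tested, and 0 rose and 0 fell in limma both from processed signals and after normexp and quantile normalization. At an unadjusted p under 0.05, 0 were higher and 1 lower from processed signals, and 1 was higher and 0 lower after normexp. Of all 20775 genes tested there, 236 were higher and 272 lower at that level from processed signals, and 190 and 139 after normexp. The direction was the same as in the table in 24 of 42 members from processed signals and in 22 of 42 after normexp. It was that of the table in both for 20 members, in 1 of them for 6 and in neither for 16. Those 16 were Abca9, Abca12, Abca13, Abca14, Abca17, Abcb1b, Abcb4, Abcb6, Abcb10, Abcc1, Abcc6, Abcc9, Abcc10, Abcf1, Abcg4 and Abcg5. For Abca9 and Abca5 these counts compare different probes, because the brightest table probe was not kept in the scanner files. The Abca9 probe used there (0.27 and 0.51) was above the floor on 0 arrays of the table, so for Abca9 the sources were not compared on 1 probe. Abca12 was at -0.37 in the table against 1.08 and 1.00, Abca13 at 0.73 against -0.78 and -0.39, Abcb6 at 0.70 against -0.35 and -0.28, and Abcc6 at 0.43 against -0.54 and -0.63. Members with the same direction in the table and both scanner settings included Abca8a (-1.94, -1.16 and -0.42), Abcd4, Abca15, Abcg1 and Abcg2. From processed signals the groups overlapped for Abca8a, Abcd4, Abca15 and Abcg1, and not for Abcg2. Wnt3A replicate 1 lay above both Control arrays there for Abcg1 (0.05 against -0.29 and -1.91, log2) and Abca8a (-1.46 against -1.55 and -2.04). The scanner file of Control replicate 1 had 41.8% of spots well above background, the others 71.6% to 85.7%.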

How the data were processed

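RNA of 4 samples was hybridised to 1-colour (Cy3) Agilent arrays. The authors' deposited table holds linear intensity values with a median of 1 per array, and steps beyond Agilent Feature Extraction are not given in the sources used here. The scanner output gives spot intensity by Feature Extraction 10.5.1.1, per the file headers, and flag columns of other kinds that were deposited as 0 or 1. All 4 table columns ranked closest to the scanner file of Control replicate 2 (rho 0.826 to 0.845), so table and files disagree. The table was made the main source with it known that the groups differ there and hardly in the scanner files, a choice that favours calls. Table rows matched the array's probes: repeated spots of 245 probes had a median SD of 0.0820 to 0.101 (log2), against 3.41 to 3.51 over all spots. The number of arrays limits precision.

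Spots were averaged per probe after log2 and subtraction of the 75th percentile. The floor was 4.94 times the 1st percentile, a factor from the dimmest scanner signals flagged well above background. Probes above it on both arrays of a group were fitted with limma 3.58.1 in R 4.3.3 (lmFit, eBayes, two-sided, Benjamini-Hochberg), tested on simulated data. The brightest kept probe stood for a gene. At-least folds set the mean of the group above the floor against the floor of the other group. Gene names came from RefSeq's table through accession (24375 probes) or symbol (8727), otherwise from the file (8072). Positions are on mm8.

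Members and lists were chosen with earlier results of these data known. Members are named, with values on each array for those past the threshold or changed by 1 or more (log2), and partner genes are named at the ends of their lists, except for some genes that are counted but not reported by name here. Exceptions are marked or were added after values were seen, as were the values on each array of members with smaller changes. The alternatives were the scanner values, scaling, filter, floor, probe choice, variance model, replicate block and leaving out each array.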

Additional observations from a re-analysis of the deposited data

How the results depend on the processing

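The number of members that fell, 2 in the table, was 0 in both scanner settings, 1 unfiltered, 0 where each of the 4 arrays had to exceed the floor, 0 with the replicate block and 0 to 0 when single arrays were left out, where limma assumes that a lone array varies like the other group. It stayed at 2 under the other table settings, and 0 members rose in any. Over all genes, 92 rose and 55 fell. These counts were 0 and 2 from scanner processed signals, 0 and 0 after normexp, 20 and 15 unfiltered, 21 and 13 where each of the 4 arrays had to exceed the floor, and 0 and 0 with the replicate block or when single arrays were left out. The number that fell was 84 with a floor 2 times as high, 96 when probes were averaged per gene and 107 with trend and robust settings. At an unadjusted p under 0.05 the block left 1 member higher and 5 lower, beside 1392 higher and 1345 lower of all 22859 genes tested. Abca1, Abcb1a and Abcg1, which entered the test through Control alone, are among the 5. Same-numbered samples did not deviate together (correlation 0.0124), which does not tell whether they share a culture. Under the block the limma adjusted p was 0.0978 for Abca1 and 0.101 for Abcb1a. Without single arrays Abca15 ran from -2.10 to 0.015 and Abcc10 from -0.016 to 2.73, turning sign without Control replicate 1 and Wnt3A replicate 1, and Abcc10 was at -3.96 and -1.84 in the scanner settings. The causes were not tested. All scanner files name 1 slide and 1 scan time, so the slide block was not run. Dim members are limited by the estimated floor, which is lenient.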
